A study of Mus musculus with 10 samples.

Results

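The cytosolic ribosomal protein genes were read on 104 probe sets for 48 genes, of 45101 probe sets on the array and 18194 genes with a probe set of their own. They were chosen by gene symbol in the platform annotation (Rpl or Rps followed by a number, with at most one closing paralog letter and number, or Rplp0, Rplp1, Rplp2 or Rpsa). Rps6k kinase genes were left out, as was 1 probe set of the pseudogene Rps4l. Of the genes, 26 encode proteins of the large subunit (48 probe sets) and 22 proteins of the small subunit (56 probe sets). Each probe set, a group of short probes against one stretch of a transcript, was treated on its own. In all, 24 genes had 1 probe set and 24 had several, up to 6. Another 110 probe sets carry several gene symbols, one of them ribosomal, and were not members. Rplp1 and Rpl5 were listed on such shared probe sets alone, and for Rpl10l no probe set with a single symbol was found.

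The arrays were Affymetrix Mouse Genome 430 2.0 arrays of total RNA from mouse marrow progenitors grown in culture with stem cell factor and without GM-CSF. The progenitors had been immortalized by one of 4 oncogene settings. HoxA9, a homeobox transcription factor, had 3 clones, and HoxA9 coexpressed with its cofactor Meis1 had 3 clones. NUP98-NSD1, a fusion of a nucleoporin with a histone methyltransferase, had 3 clones, and MLL-ENL, a fusion of the histone methyltransferase MLL with ENL, had 1 array. All groups shared the growth factor and the oncogene-driven immortalization, and no group of untransformed cells was analysed here. The vector or promoter that drove each oncogene, and whether the clones came from separate animals, were not stated in the labels, so p-values measure the spread between these clones, which may be technical.

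Ribosomal proteins assemble with ribosomal RNA in the nucleolus into the small subunit, which reads the mRNA, and the large subunit, which joins the amino acids. Their mRNAs are among the most abundant of growing cells. Most of them start with a 5′ terminal oligopyrimidine tract, a C followed by a run of C and T, through which growth signals control their translation. Some genes have paralogs with tissue-restricted or stress-related expression, and losses of single ribosomal proteins are known for failure of red cell production in the marrow.

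The start sites of 10 members are shown because the oligopyrimidine tract is the sequence feature this family is known for. Those of Rplp0 and Rpl22 were also read but are not shown. Their longest runs of C and T in the window described below were 7 and 5 bases. They were taken from RefSeq promoters of mouse build GRCm38.p6, in which 43 of the 48 genes were found, and the most upstream start of each gene was used. Each line runs 5′ to 3′ on the gene's strand over 60 bases, from 40 before the annotated start to 20 from it on, and capitals mark the longest run of C and T where it reached 8 bases.
Rpl13a, chr7:45128726-45128785, minus strand: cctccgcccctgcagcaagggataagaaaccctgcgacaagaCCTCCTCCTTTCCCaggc
Rpl22l1, chr3:28805468-28805527, plus strand: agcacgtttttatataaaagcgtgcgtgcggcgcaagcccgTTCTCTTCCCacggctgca
Rpl27, chr11:101442205-101442264, plus strand: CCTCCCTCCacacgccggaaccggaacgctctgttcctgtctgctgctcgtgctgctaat
Rps6, chr4:86857348-86857407, minus strand: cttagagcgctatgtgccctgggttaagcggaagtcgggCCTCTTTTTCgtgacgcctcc
Rps10, chr17:27635225-27635284, minus strand: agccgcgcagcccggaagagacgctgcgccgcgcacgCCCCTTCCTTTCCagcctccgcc
Rps9, chr7:3704001-3704060, plus strand: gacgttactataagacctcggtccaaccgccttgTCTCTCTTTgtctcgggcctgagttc
Rps27l, chr9:66946046-66946105, plus strand: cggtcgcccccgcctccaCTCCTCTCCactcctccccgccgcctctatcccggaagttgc
Rps3, chr7:99483690-99483749, minus strand: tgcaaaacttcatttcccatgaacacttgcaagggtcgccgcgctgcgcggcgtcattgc
Rps19, chr7:24884552-24884611, plus strand: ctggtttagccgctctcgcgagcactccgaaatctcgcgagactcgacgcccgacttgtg
Rpl3l, chr17:24727786-24727845, plus strand: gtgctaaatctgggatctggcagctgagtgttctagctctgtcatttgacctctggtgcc

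A run of at least 8 C or T on the gene's strand lay in this 60-base window of 22 of 43 members (51.2%) and of 6480 of 27025 genes in the whole table (24%). In the full 300-base windows, from 250 before the start to 50 from it on, CCGGAAG on either strand was found in 21 of 43 members (48.8%) and 9.14% of all genes. AAGATGGC was found in 4 members (9.3%) against 2.87% of all genes, and CACGTG in 3 members (6.98%) against 7.24%. Motifs were searched on both strands and counted once a window whether or not they overlapped. These matches describe the letters in the windows, and annotated starts can lie upstream of the start in use in these cells. The marked runs of Rps6, Rps10 and Rps9 span the annotated start, at which Rps9 has a T. Those of Rpl27 and Rps27l end before it, and those of Rpl13a and Rpl22l1 begin after it. Runs that end before or begin after the start are not tracts at the 5′ end of the annotated mRNA. The count of 22 includes such runs.

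The deposited values were signals on a linear scale, with the trimmed mean of each array set to the same level. They were analysed as log2(signal + 32), and every fold given is a fold of signal + 32. A probe set was tested if 3 or more of the 10 arrays exceeded a signal of 369.318, the 40th percentile over the table, which 99 member probe sets of 46 genes passed. The 5 that did not were 1 probe set each of Rpl27a, Rps4x and Rpsa and the single probe sets of Rps16 and Rpl39l, a testis-enriched paralog. Calls are limma tests over 30945 kept probe sets with a Benjamini-Hochberg adjusted p under 0.05.

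The arrays fell into 2 sets by their 18 hybridization controls, bacterial and phage transcripts spiked into the hybridization mix. Their mean log2 signal was 13.2 to 13.4 on the HoxA9 and HoxA9+Meis1 arrays and 14.0 to 14.1 on the NUP98-NSD1 and MLL-ENL arrays. Between NUP98-NSD1 and either HoxA9 group, set and oncogene therefore cannot be told apart. The median signal of all probe sets ranged from 440.3 to 660.3 over the 10 arrays. Defining markers of myeloid progenitors (Ptprc, Kit, Mpo, Elane, Prtn3, Ctsg, Spi1) were above the filter level on every array, and Cd34 ranged from 93.9 to 50766. On the deposited scale the summed signal of 8 progenitor markers was 490667 to 594574 in the HoxA9 groups and 782199 to 932387 on the NUP98-NSD1 and MLL-ENL arrays. This split is that of the array sets. The sum includes very bright probe sets such as Mpo (at least 126200 on every array), and no sum on another scale is given here. Summed signals of 3 to 4 T cell, B cell, erythroid and stromal markers stayed at or under 8420 on every array, those of megakaryocyte markers at or under 17995, and those of 4 macrophage markers ran from 19967 to 63540. Of the T cell markers, Cd3g was below the filter level on every array, Cd3e ranged from 87.4 to 778.5, and Cd8a was above it on every array (896.6 to 2196.8). The part of these cell mixtures in the ribosomal values was not tested, and in cultures, more of a cell type and more RNA per cell cannot be told apart.

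The members divided by signal into 70 probe sets of 37 genes with a mean of at least 25000 over the arrays, called bright here, and 29 tested probe sets of 19 genes below it, called dim. This division was made after the values were seen, and no member lay between 15390 (Rpl7l1) and 43733 (Rpl37). The brightest member was a probe set of Rps29, with a mean of 177212. The dimmest was that of Rps16, with a mean of 51.1. Of the 200 brightest probe sets on the array, 59 were members and 67 carried a ribosomal symbol among several.

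Bright members were higher in NUP98-NSD1 than in HoxA9 cells on the deposited scale. The rise was lost for most of them after quantile normalization and turned to a small deficit when arrays were scaled to the hybridization controls. When arrays were scaled to the brightest other probe sets, 67 of the 70 were called higher, beside 11.7% of all kept probe sets. The median deposited signal of the bright members was 107621, 111965 and 101812 in the HoxA9 clones. It was 118781, 116427 and 118105 in the HoxA9+Meis1 clones. It was 155094, 167938 and 176594 in the NUP98-NSD1 clones and 167518 on the MLL-ENL array. The 3 NUP98-NSD1 clones and the MLL-ENL array thus lay above all 6 HoxA9 and HoxA9+Meis1 clones, as did their hybridization controls.

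**Figure D1:**
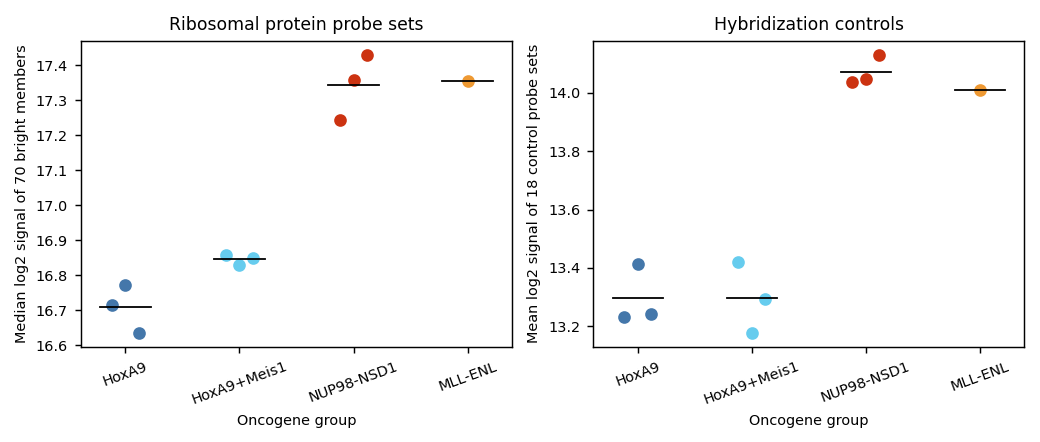
Left, median log2 deposited signal of the 70 bright ribosomal probe sets, and right, mean log2 signal of 18 hybridization controls, by oncogene group; each point is 1 array and each bar the group mean. Both measures are higher on the NUP98-NSD1 and MLL-ENL arrays than on the 6 others, so scaling to the controls turns the ribosomal difference to the other direction.

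Of the 99 tested members, 69 were called higher in NUP98-NSD1 than in HoxA9 cells, 9 lower and 21 neither, with a median log2 difference of 0.60. Of all kept probe sets, 12.3% were called higher and 16.7% lower, with a median of -0.14. Among bright members 67 of 70 rose and 1 fell, with a median of 0.69, a 1.62-fold rise. Among dim members 2 of 29 rose and 8 fell, with a median of -0.38. Against HoxA9+Meis1 cells, which share the NUP98-NSD1 clones with the first comparison, 64 members were called higher and 13 lower, with a median of 0.45 (13.8% and 17.2% of all kept probe sets). There 63 bright members rose and 1 fell, and 1 dim member rose and 12 fell.

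After quantile normalization, which gives every array the same distribution of signals, 21 members were called higher against HoxA9 and 15 lower, with a median of 0.0067 (12.3% and 15.4% of all kept probe sets). Against HoxA9+Meis1 the counts were 22 higher and 19 lower (13.7% and 16.6%). Members and probe sets with a ribosomal symbol among several made up 59 and 67 of the 200 brightest probe sets. Quantile normalization gives these top ranks the same values on every array, so it removes most of any rise common to them. Loss of the rise on that scale therefore cannot tell such a common rise from a difference in array scale. Scaled to the hybridization controls, 0 members were called higher and 39 lower against HoxA9, beside 2.4% and 63% of all kept probe sets. On that scale the median was -0.17 for members and -0.91 for all kept probe sets, so the members' median was the less negative. This scaling takes 0.77 from every log2 difference between NUP98-NSD1 and either HoxA9 group, so any smaller rise turned negative on it. Against HoxA9+Meis1 it gave 0 higher and 69 lower (2.82% and 61.2% of all), with medians of -0.33 and -0.90.

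Very bright probe sets of other genes also differed in this comparison. At a mean signal of at least 100000, 59 of 59 members were called higher against HoxA9 on the deposited scale, with a median of 0.70. Of 67 probe sets of other genes at that signal, 57 were called higher, with a median of 0.54. Between 50000 and 100000 the counts were 7 of 9 members and 157 of 314 others (50%). After quantile normalization, at least 100000 gave 13 members higher and 6 lower, and 6 others higher and 20 lower. Between 50000 and 100000 it gave 5 of 9 members and 63 of 314 others higher. The part of brightness in the ribosomal rise was not tested beyond these counts.

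**Figure D2:**
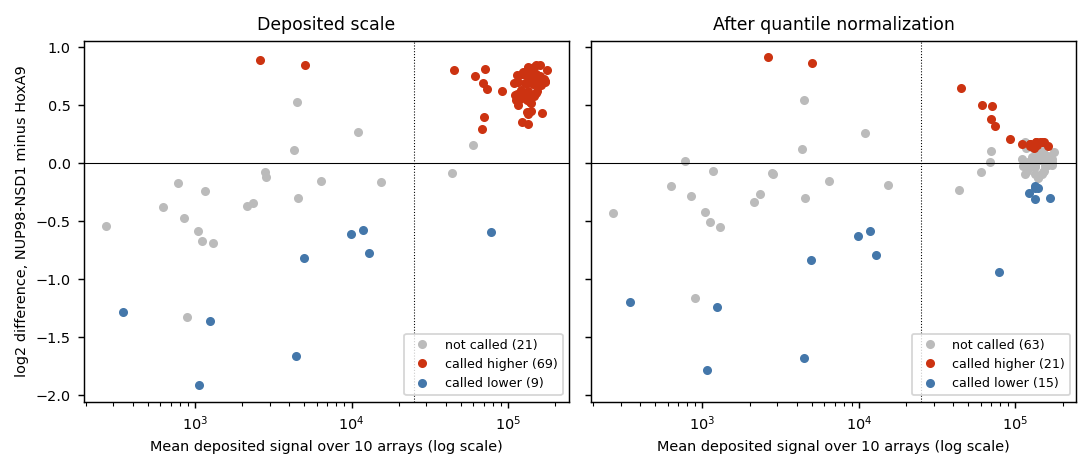
Log2 difference between NUP98-NSD1 and HoxA9 for the 99 tested ribosomal probe sets against their mean deposited signal (log axis), on the deposited scale (left) and after quantile normalization (right). The dotted line marks a signal of 25000; the bright cluster lies mostly above 0 on the left and around 0 on the right, and would lie slightly below 0 on the scale of the hybridization controls.

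Calls shared by the deposited and quantile scales were fewer. Shared and opposite calls between scales were counted for members only, with no share of all kept probe sets to set beside them. Against HoxA9, 21 probe sets of 14 genes were called higher on both scales and 9 probe sets of 9 genes lower on both. Against HoxA9+Meis1, 22 probe sets of 12 genes were higher on both and 11 probe sets of 10 genes lower on both. Of those called higher on both scales, 0 were called higher on the scale of the hybridization controls in either comparison. All 9 and 11 called lower on both were called lower on it too. Because that scaling takes 0.77 from every log2 difference, both outcomes were largely set by the shift. In the first comparison 6 members were called in opposite directions on the deposited and quantile scales: Rps3, Rps9, Rps19, Rps18, Rpl6 and Rpl27, each through 1 probe set.

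Among proteins of the stalk, the flexible arm of the large subunit that recruits translation factors, Rplp0 had a signal of 99574, 105767 and 94403 in the HoxA9 clones and 111096, 106490 and 111473 in the HoxA9+Meis1 clones. It had 148693, 161730 and 173863 in the NUP98-NSD1 clones and 164926 on the MLL-ENL array. NUP98-NSD1 did not overlap the HoxA9 or HoxA9+Meis1 clones, and the rise over HoxA9 was 0.69 ± 0.07 (log2, SE, n = 3 clones a group, limma adjusted p = 0.000151). It was 0.05 after quantile normalization (adjusted p = 0.383) and -0.084 scaled to the hybridization controls. Rplp2, its partner in the stalk, rose by 0.73 ± 0.08 and had 0.04 after quantile normalization (limma adjusted p = 0.57). Rpsa, a small-subunit protein also known as a laminin receptor, had 130950, 135349 and 118563 in HoxA9 and 197416, 213809 and 221053 in NUP98-NSD1 cells. Its rise was 0.72 ± 0.07, with 0.03 after quantile normalization. These 3 genes moved with the family and none kept its call after quantile normalization.

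The large-subunit genes whose rise was called on both the deposited and quantile scales included Rpl22l1, Rpl27, Rpl13a, Rpl22 and Rpl27a. Rpl22l1, a paralog of the RNA-binding protein Rpl22 that can take its place in the ribosome, had 52370, 57930 and 53574 in HoxA9 and 49173, 47818 and 70017 in HoxA9+Meis1 clones. It had 98695, 100911 and 87992 in the NUP98-NSD1 clones and 93947 on the MLL-ENL array. No NUP98-NSD1 clone overlapped the HoxA9 or HoxA9+Meis1 clones, while the MLL-ENL array lay within the NUP98-NSD1 range. The rise over HoxA9 was 0.81 ± 0.13 (limma adjusted p = 0.00154), 0.50 after quantile normalization (adjusted p = 0.0215). Over HoxA9+Meis1 it was 0.80 ± 0.13, and 0.60 after quantile normalization (limma adjusted p = 0.00812). On the scale of the hybridization controls it was 0.04 against HoxA9 (limma adjusted p = 0.836). Rpl22 itself rose by 0.83 ± 0.07 and by 0.63 ± 0.07 on its 2 bright probe sets, of which the first kept its call after quantile normalization (0.19, limma adjusted p = 0.0213). Scaled to the controls the second was -0.14. A dim probe set of Rpl22 had 0.27 ± 0.17, with overlapping groups.

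Rpl27, a protein of the large subunit, had 49646, 52749 and 44982 in HoxA9, 47623, 43842 and 47197 in HoxA9+Meis1 and 78576, 84034 and 85544 in NUP98-NSD1 cells on one probe set. It rose by 0.75 ± 0.08 over HoxA9 and by 0.84 ± 0.08 over HoxA9+Meis1, and after quantile normalization by 0.50 and 0.69 (limma adjusted p = 0.000598 and 9.86e-05), with -0.02 and 0.07 scaled to the controls. Another Rpl27 probe set was one of the 6 called in opposite directions. Rpl13a, known for a role in translational silencing in myeloid cells, had 4 bright probe sets, all called higher on the deposited scale and 3 of them on both. Its dimmest bright probe set had 35413, 37401 and 30635 in HoxA9 and 69951, 62476 and 49530 in NUP98-NSD1 cells, a rise of 0.80 ± 0.14, and 0.65 after quantile normalization (limma adjusted p = 0.00999). One of its brighter probe sets rose by 0.85 ± 0.08, and by 0.19 after quantile normalization. Rpl27a, whose dim probe set had 1502, 2139 and 1944 in HoxA9 and 3434, 3417 and 3490 in NUP98-NSD1 cells, had the largest rise of the family, 0.89 ± 0.16, and 0.91 after quantile normalization. Its rise over HoxA9+Meis1 was 0.63 ± 0.16 and missed the threshold without HoxA9+Meis1 clone 1 (0.58, limma adjusted p = 0.0516). Rpl11, which can bind and restrain Mdm2, rose by 0.76 ± 0.07 over HoxA9, and had 0.18 after quantile normalization (limma adjusted p = 0.0731) and -0.02 scaled to the controls. Rpl39, which lines the exit tunnel, had 4769, 4862 and 4400 in HoxA9, 5244, 5260 and 5408 in HoxA9+Meis1 and 4174, 4060 and 3247 in NUP98-NSD1 cells. It was lower than in HoxA9+Meis1 cells, by a log2 difference of -0.48 ± 0.12 (limma adjusted p = 0.0145), and -0.29 against HoxA9 was not called. Its paralog Rpl39l had signals of at most 336 on every array and was not tested.

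Small-subunit genes with a rise called on both the deposited and quantile scales included Rps10, Rps4x, Rps20 and Rps6. Rps10, which lies at the head of the small subunit, had 117474, 125381 and 114179 in HoxA9 and 199711, 217144 and 225113 in NUP98-NSD1 cells on its brightest probe set. Its rise was 0.85 ± 0.07, and 0.15 after quantile normalization (limma adjusted p = 0.0263), and 3 more of its probe sets were called higher on both scales. Rps4x and Rps20 rose by 0.83 ± 0.06 and 0.82 ± 0.06, each by 0.18 after quantile normalization. Rps29, a zinc-binding protein, had 133925, 138950 and 129587 in HoxA9 and 225137, 233412 and 244511 in NUP98-NSD1 cells. It rose by 0.80 ± 0.06, and had 0.09 after quantile normalization (limma adjusted p = 0.122). None of these rises was called on the scale of the hybridization controls.

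Rps6, the substrate of the S6 kinases in growth signalling, was read by 2 dim probe sets. The brighter of them had 3993, 3025 and 3412 in HoxA9, 5297, 5127 and 5566 in HoxA9+Meis1 and 7336, 6765 and 4896 in NUP98-NSD1 cells, with 4832 on the MLL-ENL array. Both other groups lay above HoxA9 without overlap. The rise of NUP98-NSD1 over HoxA9 was 0.85 ± 0.16 (limma adjusted p = 0.00372), and 0.86 after quantile normalization, but 0.07 scaled to the controls (adjusted p = 0.758). NUP98-NSD1 and HoxA9+Meis1 overlapped, with a difference of 0.23 ± 0.16. That difference was called higher without NUP98-NSD1 clone 3 (0.40, limma adjusted p = 0.046) and lower when scaled to the controls (-0.55, adjusted p = 0.0293). The dimmer Rps6 probe set had between 69 and 555 over the replicated groups, and its groups overlapped.

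**Figure D3:**
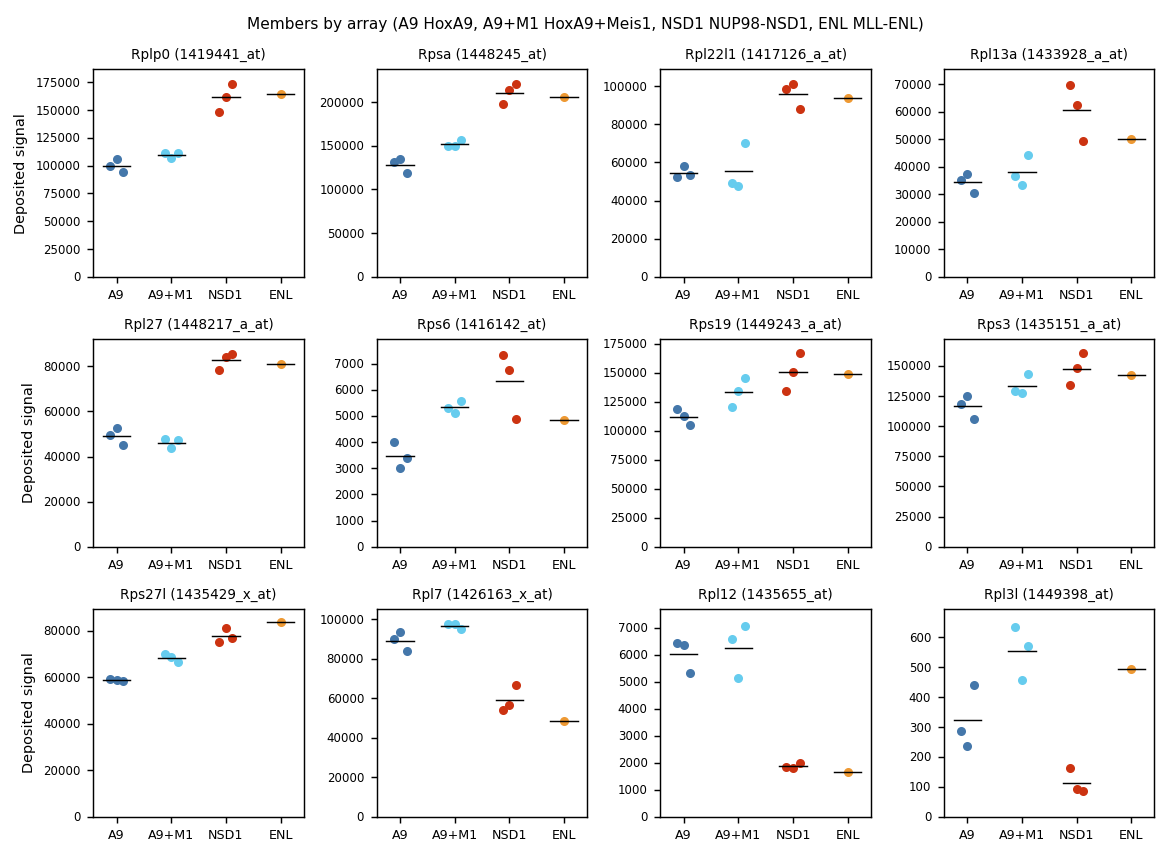
Deposited signal of 12 ribosomal probe sets by oncogene group (vertical axes linear from 0; A9 HoxA9, A9+M1 HoxA9+Meis1, NSD1 NUP98-NSD1, ENL MLL-ENL); each point is 1 array and each bar the group mean. Rplp0, Rpsa, Rpl22l1, Rpl13a and Rpl27 are higher in the NUP98-NSD1 clones on this scale, a difference from HoxA9 that for Rplp0, Rpsa and Rpl27 turns slightly negative when scaled to the hybridization controls. Rps19, Rps3 and Rps27l rise less and turn to -0.35, -0.43 and -0.37 on that scale, and Rpl7, Rpl12 and Rpl3l are lower.

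The 6 bright members called in opposite directions on the deposited and quantile scales rose by less than the bright median of 0.69. For Rps18, Rpl6 and Rpl27 those probe sets had 0.43, 0.45 and 0.45, and -0.30, -0.19 and -0.21 after quantile normalization; the others were Rps19, Rps3 and Rps9. Rps19, the gene most often mutated in Diamond-Blackfan anaemia, had 118943, 112511 and 104758 in HoxA9, 120702, 134414 and 145071 in HoxA9+Meis1 and 134054, 150443 and 167101 in NUP98-NSD1 cells. It rose over HoxA9 by 0.42 ± 0.10 (limma adjusted p = 0.00895) on the deposited scale, and had -0.22 after quantile normalization (adjusted p = 0.0439) and -0.35 scaled to the hybridization controls (adjusted p = 0.0208). Its NUP98-NSD1 and HoxA9+Meis1 clones overlapped. Rps3, which lines the entry of the mRNA channel, had 118388, 125295 and 106045 in HoxA9 and 133877, 148004 and 161098 in NUP98-NSD1 cells on its bright probe set. Its rise was 0.34 ± 0.09 (limma adjusted p = 0.0172), which turned to -0.30 after quantile normalization (adjusted p = 0.00241). Rps9, which bears on the accuracy of decoding, rose by 0.36 ± 0.09 on its bright probe set (limma adjusted p = 0.0148), which turned to -0.25 (adjusted p = 0.00393). Scaled to the hybridization controls, Rps3 and Rps9 had -0.43 and -0.42 and were called lower (limma adjusted p = 0.00198 and 0.00259). The rises of Rps19, Rps3 and Rps9 were not called with a common median of arrays (adjusted p = 0.0506, 0.0775 and 0.0724) or without an intensity trend in limma (0.0557, 0.0892 and 0.0798). Without HoxA9 clone 3 the rises of Rps3 and Rps9 were 0.27 and 0.30 and missed the threshold (limma adjusted p = 0.0649 and 0.0571). Rpl37 was a bright member with no call, at -0.08 ± 0.08, and it was chosen for mention after its values were seen.

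Rps27l, a paralog of Rps27 that is induced by p53, was read by 3 bright probe sets. The first had 59339, 58927 and 58436 in HoxA9, 70262, 68802 and 66585 in HoxA9+Meis1 and 75251, 81262 and 77142 in NUP98-NSD1 cells, with 83828 on the MLL-ENL array. The 3 probe sets differed by 0.40 ± 0.06, 0.30 ± 0.07 and 0.16 ± 0.07 between NUP98-NSD1 and HoxA9. The first 2 were called (limma adjusted p = 0.00108 and 0.00842) and the third was not (adjusted p = 0.0915). After quantile normalization 0 of the 3 were called, with values of 0.11, 0.02 and -0.07, and scaled to the hybridization controls all 3 were called lower, at -0.37, -0.48 and -0.61 (limma adjusted p = 0.00474, 0.00152 and 0.000331). Over HoxA9+Meis1 the first rose by 0.18 ± 0.06, and it was not called without HoxA9+Meis1 clone 1, 2 or 3 or NUP98-NSD1 clone 2 (limma adjusted p = 0.0831, 0.103, 0.13 and 0.127). The probe set of Rps27 itself was dim, with 4012, 1372 and 1103 in the NUP98-NSD1 clones, and its groups overlapped.

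The members called lower in NUP98-NSD1 than in HoxA9 cells on both the deposited and quantile scales were Rpl7, Rpl12, Rpl3l, Rpl41, Rpl7l1, Rps3, Rps9, Rps18 and Rps25, each through 1 probe set. They were also called lower scaled to the hybridization controls, which takes 0.77 from every log2 difference. Rpl12, which sits at the base of the stalk and has 1 probe set here, had 6421, 6365 and 5322 in HoxA9, 6593, 5133 and 7054 in HoxA9+Meis1 and 1851, 1800 and 1996 in NUP98-NSD1 cells. The MLL-ENL array had 1674. The NUP98-NSD1 clones lay far below the other clones, by 1.66 ± 0.15 against HoxA9 (a 3.16-fold fall; limma adjusted p = 5.77e-05) and by 1.71 ± 0.15 against HoxA9+Meis1. After quantile normalization the log2 differences were -1.68 and -1.74.

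Rpl3l, a paralog of Rpl3 known from striated muscle, was near the filter level. It had 288, 238 and 440 in HoxA9, 634, 456 and 572 in HoxA9+Meis1, 163, 92 and 87 in NUP98-NSD1 cells and 496 on the MLL-ENL array. All 3 NUP98-NSD1 clones were under the filter level. The difference from HoxA9+Meis1 was -2.03 ± 0.42 (limma adjusted p = 0.00517). That from HoxA9 was -1.28 ± 0.42 (adjusted p = 0.0438), and it was not called without any single one of HoxA9 clones 1, 2 and 3 (adjusted p = 0.0882, 0.0634 and 0.155) or NUP98-NSD1 clones 2 and 3 (0.0861 and 0.0728), nor in the fits listed in the closing section. Rpl7l1, a relative of Rpl7, fell by 0.58 ± 0.12 against HoxA9 on 1 of 3 probe sets, with a log2 difference of -0.58 (limma adjusted p = 0.00654); the others had -0.16 and -0.08. With a common median of arrays its fall was not called (-0.39, limma adjusted p = 0.199). Rps25, needed for initiation at some viral internal entry sites, had 11069, 11283 and 10196 in HoxA9 and 6987, 6876 and 7471 in NUP98-NSD1 cells, a difference of -0.61 ± 0.08. Rps25 was chosen for mention after its values were seen.

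In several genes the probe sets were called in opposite directions. On the deposited scale this held against HoxA9 for 5 of the 19 member genes with at least 2 called probe sets: Rpl41, Rpl7, Rps18, Rps3 and Rps9. Over all genes it held for 289 of 1357 (21.3%). Against HoxA9+Meis1 it held for 6 of 17 member genes, Rpl35, Rpl41, Rpl7, Rps10, Rps18 and Rps20, and for 334 of 1540 of all genes (21.7%). Whether the member shares differ from those of all genes was not tested.

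**Figure D4:**
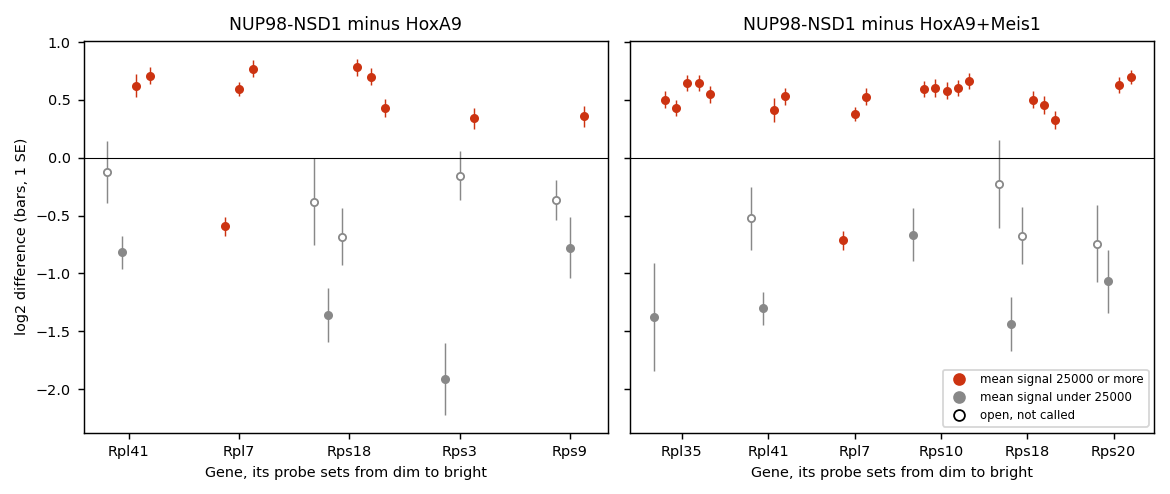
Log2 difference on the deposited scale for every tested probe set of the genes called in both directions, against HoxA9 (left) and against HoxA9+Meis1 (right), with bars of 1 SE. Filled points were called at an adjusted p under 0.05; the points below 0 are dim probe sets except for 1 of Rpl7, and the bright points above 0 shrink on the quantile scale, where some stay called higher and others turn negative, and on the hybridization control scale none is called higher.

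Rpl7, a large-subunit protein, was the case in which bright probe sets disagreed. One had 96088, 94159 and 87449 in HoxA9 and 146065, 156655 and 171794 in NUP98-NSD1 cells, a rise of 0.77 ± 0.07 (limma adjusted p = 8.33e-05). Another had 89920, 93312 and 83903 in HoxA9, 97602, 97525 and 94829 in HoxA9+Meis1 and 54204, 56592 and 66684 in NUP98-NSD1 cells, with 48530 on the MLL-ENL array. It differed by -0.59 ± 0.08 from HoxA9 (limma adjusted p = 0.000721) and by -0.94 after quantile normalization (adjusted p = 9.24e-06). The groups did not overlap on either probe set, but with a common median of arrays the second was not called against HoxA9 (-0.41, limma adjusted p = 0.144). The second has the platform's x suffix, for probes that can match other transcripts, and 71 of the 104 members had a suffix a, s or x. A further tested Rpl7 probe set, also with the x suffix, had -0.18 against HoxA9 scaled to the controls, where the falling one had -1.37. That scaling takes 0.77 from every log2 difference, so this further probe set had a positive difference on the deposited scale.

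In the other genes the fall was on dim probe sets. Rps18 rose by 0.78 ± 0.07, 0.70 ± 0.08 and 0.43 ± 0.07 on 3 bright probe sets, of which the last was -0.30 after quantile normalization and the last and the one before it were -0.35 and -0.07 scaled to the controls. A dim one had 1413, 1753 and 1632 in HoxA9 and 479, 651 and 692 in NUP98-NSD1 cells, a difference of -1.36 ± 0.23 (limma adjusted p = 0.00219). Rps3 had a dim probe set with 2033, 1426 and 1558 in HoxA9 and 388, 625 and 294 in NUP98-NSD1 cells, a difference of -1.91 ± 0.31 (adjusted p = 0.0016). Rpl41, a very short basic peptide of the large subunit, rose by 0.71 ± 0.07 and 0.62 ± 0.10 on bright probe sets, which had -0.07 and -0.15 scaled to the controls. It fell on a dim one, by 0.82 ± 0.14 against HoxA9 and 1.30 ± 0.14 against HoxA9+Meis1, where its clones had 3524, 2950 and 2653 against 7838, 6651 and 8082. The dim Rps9 probe set had -0.78 ± 0.26 (limma adjusted p = 0.048), and without any one of the 6 clones compared it missed the threshold (adjusted p = 0.0546 to 0.167). Against HoxA9+Meis1, dim probe sets of Rpl35, Rps10 and Rps20 had -1.38, -0.66 and -1.07, of which that of Rps10 was not called after quantile normalization (limma adjusted p = 0.086). That of Rpl35 missed the threshold without any single HoxA9+Meis1 clone (adjusted p = 0.0691 to 0.132), and without NUP98-NSD1 clone 3 it was -0.73 (adjusted p = 0.0517).

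HoxA9+Meis1 and HoxA9 arrays came from the same array set, and their hybridization controls differed by 0.0008 on average (log2). Of the 99 tested members, 2 were called higher in HoxA9+Meis1 cells and 0 lower, against 3.4% and 3.49% of all kept probe sets. The median difference was 0.16, a 1.12-fold signal, and 85 of 99 members had a positive difference. The clones of the 2 groups did not overlap for 58 members above and 3 below, beside 13.5% and 15.1% of all kept probe sets. Very bright probe sets of other genes had a like difference on the deposited scale. At a mean signal of at least 100000 the median was 0.16 for 59 members and 0.18 for 67 probe sets of other genes. The split of members by clones without overlap was 11 above and 15 below after quantile normalization (13.9% and 14.3% of all), and 19 above and 2 below scaled to the hybridization controls (9.87% and 12.6%). After quantile normalization the median was 0.011 with 1 higher call and 0 lower (3.51% and 3.69% of all), and scaled to the hybridization controls it was 0.16 with 0 calls either way (2.53% and 2.9% of all). The called members were Rps6, with 0.62 ± 0.16 (limma adjusted p = 0.0454; 0.65 and 0.0388 after quantile normalization), and Rps18, with 0.28 ± 0.07 (adjusted p = 0.0465). Neither call held throughout: Rps6 missed the threshold without HoxA9 clone 2 or 3 or any one HoxA9+Meis1 clone (adjusted p = 0.11 to 0.167), and Rps18 without any one of the 6 clones (adjusted p = 0.0751 to 0.154).

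MLL-ENL had 1 array, so its values carry no test. Of the 99 members, 70 lay within the range of the 3 NUP98-NSD1 clones, 8 above and 21 below, with a median difference of -0.01; of all kept probe sets 22.9% lay above and 33.7% below. After quantile normalization 23 lay above and 25 below (29.6% and 27.6% of all), and scaled to the hybridization controls 37 above and 10 below (27.6% and 28.7%), the other way round. Of the bright members 58 of 70 lay within that range on the deposited scale. The 29 members outside it became 70 without NUP98-NSD1 clone 1 and 57 without clone 3. The MLL-ENL array lay above all 3 HoxA9 clones for 72 members and below for 20, beside 26.3% and 48.5% of all kept probe sets, and the HoxA9 and MLL-ENL arrays belong to different array sets. Against HoxA9+Meis1 the counts were 69 above and 22 below (28.8% and 48.3%). After quantile normalization 44 members lay above and 34 below HoxA9 (33.6% and 39.2% of all), and scaled to the hybridization controls 7 above and 58 below (4.18% and 81.8%). Against HoxA9+Meis1 the same scales gave 43 above and 35 below (35% and 40.8%), and 1 above and 82 below (6.58% and 78.5%).

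Members outside the NUP98-NSD1 range on the deposited scale, within one array set, included all 3 Rps27l probe sets, above the clones' mean by 0.11, 0.13 and 0.16. When arrays were scaled to the brightest other probe sets, 0 of the 70 bright members, Rps27l included, lay above that range and 52 lay below. Of all 30945 kept probe sets, 5231 lay above and 12488 below on that scale. After quantile normalization 15 bright members lay above and 16 below (29.6% and 27.6% of all). Scaled to the hybridization controls, 30 lay above and 2 below (27.6% and 28.7%). On the deposited scale Rpl3l was above the NUP98-NSD1 clones by 1.89, with 496 against 163, 92 and 87, and Rps25 by 0.59, with 10731 against 6987, 6876 and 7471. Of the Rpl7l1 probe sets, 2 were above by 0.32 and 0.40. Below them lay the falling Rpl7 probe set, by a log2 difference of -0.28, the dim Rpl41 probe set, by -0.79, and Rpl37a, by -2.38. The last, like Rps25, was chosen after its value was seen.

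Other parts of the ribosome pathway were described with 1 probe set a gene, the brightest of those tested, beside all genes (1870 of 14233 higher against HoxA9 and 2595 lower, median -0.14). Taken the same way, 19 of 25 measured large-subunit genes were called higher against HoxA9 and 2 lower, and 19 of 21 small-subunit genes higher and 1 lower. Their medians were 0.67 and 0.62, and -0.011 and 0.0067 after quantile normalization, and -0.10 and -0.16 scaled to the controls. Of 4 measured paralogs with tissue-restricted or alternative expression, Rpl22l1 and Rps27l were called higher and Rpl3l lower, and after quantile normalization 1 was called higher and 1 lower. Fau, which makes a small-subunit protein as a fusion with a ubiquitin-like part, rose by 0.60 ± 0.10, and had 0.02 after quantile normalization and -0.17 scaled to the controls.

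Translation factors and other products of mRNAs with an oligopyrimidine tract were called higher against HoxA9 in 13 of 19 genes and lower in 1, with a median of 0.35. The median signal of this list was 64549.5, against 2286 for all genes. Of 314 probe sets of other genes between 50000 and 100000, 157 were called higher, with a median of 0.25. The part of brightness in the difference of this list was not tested. After quantile normalization 3 genes of the list were higher and 5 lower, and scaled to the controls 0 were higher and 14 lower. Over all 14233 genes those counts were 1787 and 2501, and 364 and 9728. Tpt1, a growth-associated protein, rose by 0.76 ± 0.07 and Eef1b2, an elongation factor subunit, by 0.74 ± 0.07, with -0.02 and -0.03 scaled to the controls. Of these, Eef1b2 was called after quantile normalization too (0.29, limma adjusted p = 0.00703). Hnrnpa1, a splicing regulator in this list, was lower, with a signal of 10282 in NUP98-NSD1 and 22449 in HoxA9 cells (-1.13 ± 0.11, limma adjusted p = 8.66e-05).

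Of 34 ribosome assembly factors, which build the subunits and are not part of them, 2 were called higher against HoxA9 and 9 lower, with a median of -0.16, and against HoxA9+Meis1 2 higher and 13 lower (of all 14233 genes, 2020 and 2627). Scaled to the controls, 0 were higher in either comparison and 32 and 34 lower, beside 9728 and 9407 of all genes lower. Ltv1, which acts in small-subunit export, was at 8408 in NUP98-NSD1 and 14914 in HoxA9 cells (-0.82 ± 0.09, limma adjusted p = 0.000155). Nmd3, the export adaptor of the large subunit, was at 6406 and 10603 (-0.73 ± 0.11). Against HoxA9+Meis1, Nolc1 and Nop56, both nucleolar, had -0.82 ± 0.11 and -0.76 ± 0.11. Of 15 genes of RNA polymerase I and its factors, 2 were higher (Ttf1 and Polr1c) and 1 lower (Polr1a) against HoxA9. Of 75 mitochondrial ribosomal protein genes, 7 were higher and 19 lower, with a median of -0.11, and Mrpl45 rose by 0.92 ± 0.11 (0.15 scaled to the controls, limma adjusted p = 0.327). Scaled to the controls, 0 were higher and 12 lower in the polymerase list, and 0 and 68 in the mitochondrial list. Whether these lists differ from the cytosolic members was not tested.

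Of 15 growth regulators of ribosome synthesis, 4 were called higher and 2 lower against HoxA9. Myc, a transcription factor that drives ribosome synthesis, was at 32164 in NUP98-NSD1 and 19854 in HoxA9 cells (0.70 ± 0.15, limma adjusted p = 0.00728; 0.65 after quantile normalization and -0.07 scaled to the controls). Its dimerization partner Max was at 1226 and 2593 (-1.08 ± 0.19), and Mxd1, a competitor of Myc for Max, at 5368 and 2223 (1.31 ± 0.36). Cdkn1a, a cell cycle inhibitor induced by p53, was at 5550 and 2304 (1.30 ± 0.24). Scaled to the controls, Mxd1 and Cdkn1a had 0.54 and 0.53 and were not called. Against HoxA9+Meis1, Mycn was at 56540 and 99299 (-0.92 ± 0.25, limma adjusted p = 0.019). In the comparison of HoxA9+Meis1 with HoxA9, Cdkn1a was the 1 gene of this list called, at 5333 and 2304 (1.25 ± 0.24). Of all 14233 genes, 595 were called higher and 638 lower in that comparison.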

How the data were processed

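The deposited table held 1 intensity per probe set on a linear scale for each of 10 arrays; per the values, the authors or their software had scaled each array to a trimmed mean of 2500.01 to 2500.02, and the software is not given in the sources used here. No 2 arrays were identical (0 of 45 pairs). Symbols came from the platform annotation. Intensities were analysed as log2(signal + 32) with limma 3.58.1 in R 4.3.3 (lmFit, eBayes with an intensity trend, 4 group means, 6 residual degrees of freedom), on 30945 probe sets after removal of 64 controls. The same fit was run after quantile normalization. The members, gene lists and named probe sets were chosen with earlier results of these data known. The text names the largest called changes, genes with opposite calls and a list of members with special roles. The precision is limited by the number of arrays. The fit was tested on simulated data. Clone numbers did not pair the samples (correlations of same-numbered deviations -0.064 to 0.043). Figures were drawn with matplotlib.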

Additional observations from a re-analysis of the deposited data

How the results depend on the processing

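The direction of the bright members depended on how the arrays were scaled. With brightest-tenth scaling, to other probe sets that were dimmer than the bright members, 69 members were higher and 9 lower against HoxA9, with a median of 0.58. Of all kept probe sets, 11.7% were higher and 17.1% lower on that scale. With a common median of arrays the members' median was 0.79, and 0.60 against HoxA9+Meis1. The counts called higher and lower against HoxA9 (69 and 9) were 21 and 15 after quantile normalization and 0 and 39 scaled to the hybridization controls, and 4 were lower with a common median of arrays. Against HoxA9+Meis1 (64 and 13) 22 were higher after quantile normalization, 0 and 69 scaled to the controls, and 8 lower with a common median. Without suffixed probe sets 29 members were left, with 8 and 7 higher in the 2 comparisons and medians of -0.29 and -0.32. With 1 probe set a gene, 46 were left, with 38 higher and 3 lower, and 34 and 4. The medians of all members scaled to the controls were -0.17 and -0.33, and -0.0031 against HoxA9+Meis1 after quantile normalization. For HoxA9+Meis1 over HoxA9 (2 higher), 1 was higher with quantile normalization, a common median or no suffixed probe sets, 0 with the controls, no filter, no intensity trend or the replicate block, 5 with the 60th percentile filter, 4 with robust estimation or the brightest-tenth scaling (added after the data were seen), and 9 with the compared groups alone. The replicate block moved no count of the other comparisons by over 1.5 times. Members outside the range of the NUP98-NSD1 clones on the MLL-ENL array (29) were 48, 47 and 69 with quantile, control and brightest-tenth scaling, 12 without suffixed probe sets and 11 with 1 a gene; against HoxA9 and HoxA9+Meis1 (92 and 91) the last 2 gave 22 and 43 in both. Leaving out 1 clone at a time gave 67 to 70 higher and 7 to 13 lower against HoxA9, 60 to 65 and 8 to 14 against HoxA9+Meis1 (8 lower without HoxA9+Meis1 clone 3), 0 to 1 higher and 0 lower between the HoxA9 groups, and 30 to 70, 93 to 96 and 92 to 96 outside the clones for MLL-ENL over NUP98-NSD1, HoxA9 and HoxA9+Meis1 (70 without NUP98-NSD1 clone 1, 57 without clone 3).

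Of 52 differences of named probe sets, 47 of them called, 23 changed sign with the controls (18 of them called) and 8 with quantile normalization (4 called). Against HoxA9 the controls gave -0.084 (Rplp0), -0.044 (Rplp2), -0.058 (Rpsa), -0.14 (Rpl22), -0.021 (Rpl27), -0.35 (Rps19), -0.43 (Rps3), -0.42 (Rps9), -0.37 and -0.48 (Rps27l), -0.0041 (Rpl7) and -0.016 (Rpl11). Against HoxA9+Meis1 they gave -0.22 (Rplp0), -0.30 (Rpsa), -0.066 (Rpl13a), -0.079 (Rps20), -0.15 (Rpl27a) and -0.59 (Rps27l). Of differences not called, they gave -0.61 (Rps27l) against HoxA9 and -0.55 (Rps6), -0.60 (Rps19), -0.63 (Rps3) and -0.61 (Rps9) against HoxA9+Meis1, all called lower. Quantile normalization gave -0.22 (Rps19), -0.30 (Rps3) and -0.25 (Rps9) against HoxA9, and -0.060 (Rpsa) against HoxA9+Meis1; of those not called, -0.071 (Rps27l) against HoxA9, and -0.30 (Rps19), -0.33 (Rps3) and -0.27 (Rps9) against HoxA9+Meis1. The Rpl3l call against HoxA9 was also lost with offset 100, no filter, a common median, robust estimation, the compared groups alone, without the MLL-ENL array and with the replicate block (adjusted p = 0.0514 to 0.135). The cause of these changes was not tested. Dim probe sets, near the filter level, limit what can be said of Rpl3l, Rpl39l and Rps16.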

Other observations

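Probe sets listed with several symbols, one of them ribosomal, moved as the members did on the deposited scale. Of the 110, 107 passed the filter and 81 were bright. Of these 81, 79 were called higher in NUP98-NSD1 than in HoxA9 cells (limma, adjusted p under 0.05) and 0 lower, with a median log2 difference of 0.68, beside 12.3% and 16.7% of all kept probe sets. After quantile normalization 20 were higher and 6 lower, with a median of 0.05 (12.3% and 15.4% of all). Scaled to the hybridization controls 1 was higher and 17 lower, with a median of -0.096 (2.4% and 63% of all). They were not assigned to a gene.

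Bright members made up 4.34% ± 0.16 (SD, n = 3) of the summed deposited signal in HoxA9 clones, 4.69% ± 0.088 in HoxA9+Meis1 clones, 6.14% ± 0.23 in NUP98-NSD1 clones and 6.02% on the MLL-ENL array. The array sets differ in this share as in their hybridization controls.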
